A study of Mus musculus with 38 samples.

Results

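Gene expression of mouse embryonic stem cells (mESCs) was compared between 36 h and 48 h of exposure to all-trans retinoic acid (RA), in 2 assays. The comparison used 4 of the 38 samples of the series. These were the whole culture at 36 h and at 48 h, measured by bulk RNA-seq, and single cells of the same times, measured by Single Cell RNA Barcoding and Sequencing (SCRB-seq) on 1 plate each. A gene was kept when its share of all molecules differed at least 1.5-fold between the times, in the same direction in both assays. Of 23453 genes listed for both assays, 5777 had at least 40 molecules over both times in each assay and could be compared. Of these, 646 were kept: 496 were higher and 150 were lower at 48 h.

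The study followed the exit of E14 mESCs from pluripotency towards ectoderm-like and extraembryonic endoderm (XEN)-like cells. E14 is an established mouse mESC line. The cells had been kept without feeders in 2i/L, a medium with LIF and inhibitors of MEK and GSK3, and were then moved to N2B27 medium with 0.25 µM RA. Cells of 36 h and 48 h therefore share the line, the medium and the dose, and differ by 12 h of RA. The same 12 h are also a longer time in N2B27 without LIF and the inhibitors. No time point in N2B27 without RA is in the series, so the part of each cannot be told apart. The other samples used here are of the same line. They include untreated mESCs in 2i/L, RA cultures of other times, and cells of 48 h without PDGFRA sorted into 4 quartiles of CD24. Ectoderm-like and XEN-like cells sorted by CD24 and PDGFRA at 96 h were used as well. The other samples also include full-length single-cell libraries (SMART-seq2) of 24 h and 48 h.

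Naive mESCs resemble the epiblast before implantation and hold their state through a network around Pou5f1, Sox2 and Nanog. RA enters the cell, binds nuclear receptors that sit on DNA at repeated half-sites, and turns on genes of retinoid transport and breakdown as well as Hox genes. In mESC cultures it is known to favour neural ectoderm, and part of the cells take on an extraembryonic endoderm identity, whose hallmark is the production of a basement membrane of laminin and collagen IV.

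Each assay held 1 library per time, so that differences between 36 h and 48 h have no replicate check and no test of them was run. The values below are counts of unique molecular identifiers (UMIs), tags by which a captured RNA molecule is counted once, and CPM, their number per 1000000 UMIs of the library. Ratios are given with an exact 95% interval that covers counting error only. The bulk libraries held 1652561 UMIs at 36 h and 2459534 at 48 h. On the plates, 330 of 384 wells at 36 h and 274 of 384 at 48 h had more than 2000 UMIs and were used, at a median depth of 4565.5 and 3895.5 UMIs. Wells above 20000 UMIs, 12 at 36 h and 9 at 48 h, held 22.9% and 20.2% of the UMIs and could hold more than 1 cell. All 384 well names are shared by both plates by design, and 238 of them were kept on both. In a bulk library, fewer cells of a kind and less RNA per cell cannot be told apart.

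Over the 5777 genes, 20.5% were at least 1.5-fold higher and 5.9% at least 1.5-fold lower at 48 h in bulk. In SCRB-seq, 19.2% were higher and 14.6% lower. Both assays together gave 8.59% higher and 2.6% lower, 11.2% in either direction, and 1.82% (105 genes) went in opposite directions. The 646 kept genes were 42.4% of the 1525 genes past this fold in bulk and 33% of the 1955 past it in SCRB-seq. Across genes, which are not independent replicates, the Pearson correlation of the log2 ratios of the 2 assays was 0.438 (n = 5777 genes). As a measure of the noise in 1 library, the 2 replicate mESC libraries of the series differed at least 1.5-fold in 27.9% of their 6082 genes with as many UMIs, against 27.7% of 6310 genes between bulk 36 h and 48 h. A gene past the fold in bulk alone was therefore as frequent between replicates as between the times.

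The balance of higher and lower genes depended on the scaling. The median log2 ratio of all 5777 genes was 0.15 in bulk and 0.03 in SCRB-seq when counts were divided by the library total. With this total, 76.8% of the kept genes were higher at 48 h. With TMM factors, 328 were higher and 257 lower, so 56.1% were higher, and with DESeq2 size factors it was 319 and 277, or 53.5%. Relative to Gapdh, 605 genes were higher and 97 lower, or 86.2%. All 328 genes higher with TMM factors were among the 496, and all 150 lower genes were again lower. This overlap was set by the scaling and is no check. TMM factors move all ratios of an assay by the same amount, here downwards in both, to medians of -0.03 in bulk and -0.09 in SCRB-seq. Relative to Gapdh, 395 of the 496 were still higher and 71 of the 150 still lower.

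**Figure D1:**
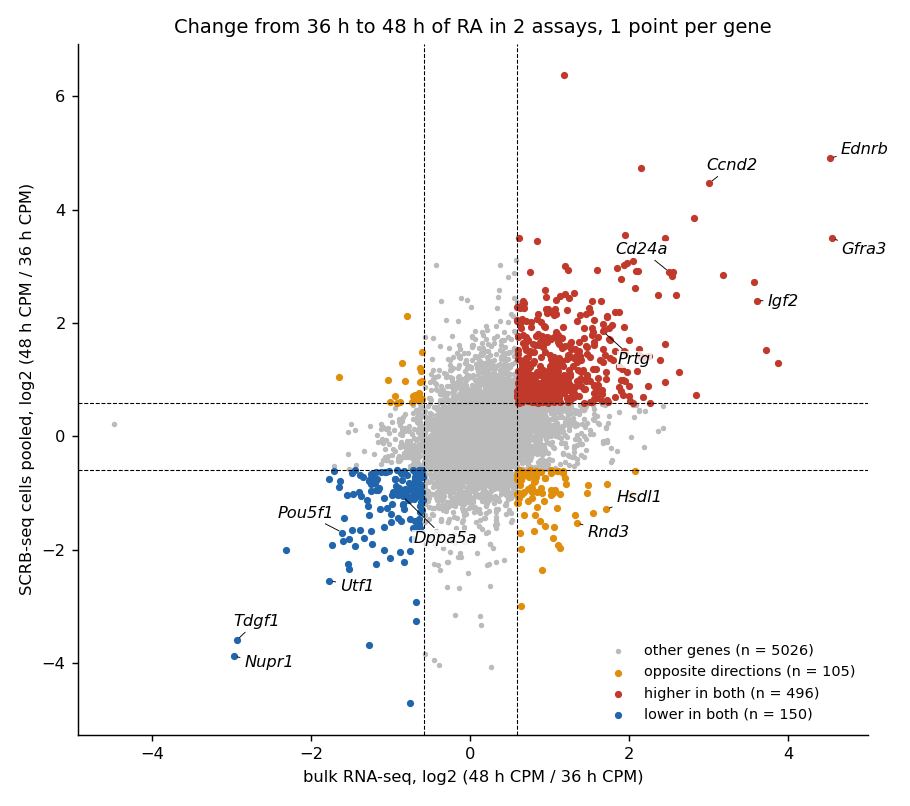
Each point is 1 of 5777 genes, placed by its log2 ratio of CPM at 48 h over 36 h in bulk (x axis) and in the summed SCRB-seq cells (y axis), with dashed lines at 1.5-fold. The 496 genes higher in both (red) fill the upper right, with Ednrb and Gfra3 at the far end, the 150 lower in both (blue) reach down to Tdgf1 and Nupr1, and 105 genes (orange) go in opposite directions.

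At the threshold itself the values of neighbouring genes hardly differed. Pom121 and Golga7 were kept with a smaller ratio of 1.5005 and 1.501, while Rbck1 and Hnrnpul1 had a bulk ratio of 1.499 and were not kept. Among lower genes, Nlrp1a (1.502-fold) and Hspb1 (1.504-fold) were kept, and Timm10 (1.496-fold) and Gm13157 (1.495-fold) were not.

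Dppa5a, Prtg and Pou3f1 were the genes chosen to mark this interval. Dppa5a, a KH domain protein found in pluripotent cells, was counted 10275 times at 36 h and 8476 times at 48 h in bulk, or 6218 and 3446 CPM. Its SCRB-seq counts were 6771 and 2131, or 2926 and 1407 CPM. It was thus lower at 48 h in both assays, 1.80-fold in bulk and 2.08-fold in SCRB-seq. Gm6083, a gene whose sequence resembles Dppa5a and may share its reads, was lower too, from 1034 to 631 CPM in bulk and from 866 to 435 CPM in SCRB-seq.

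Prtg, which encodes protogenin, a surface protein of the immunoglobulin family found in early neural ectoderm, was counted 59 times at 36 h and 280 times at 48 h in bulk (35.7 and 114 CPM). In SCRB-seq it was counted 359 and 847 times (155 and 559 CPM). It was higher at 48 h by 3.19-fold (interval 2.40 to 4.30) in bulk and by 3.61-fold (3.18 to 4.09) in SCRB-seq. Pou3f1, a POU factor of the epiblast after implantation, did not meet the rule. Its bulk counts of 14 and 13 were under the minimum and gave a ratio of 0.624 (0.270 to 1.43), whereas its 68 and 75 UMIs in SCRB-seq gave 1.69 (1.2 to 2.38). In the RefSeq annotation of GRCm38.p6, Dppa5a lies at chr9:78367052-78368199, Prtg at chr9:72807274-72917307 and Pou3f1 at chr4:124657646-124660655.

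Outside the interval, the 3 markers took different courses. Dppa5a was at 10994 and 15850 CPM in the 2 mESC libraries in bulk; it was down to 7568 CPM by 24 h and 2941 CPM by 60 h. Prtg in bulk was at 9.96, 128 and 154 CPM at 24 h, 60 h and 72 h. Pou3f1 had its highest levels at 36 h and 48 h in both assays: from 24 h to 60 h it was at 0, 29.4, 49.5 and 9.34 CPM in SCRB-seq and at 0.996, 8.47, 5.29 and 0 CPM in bulk. At all other times it was at most 12.1 CPM in SCRB-seq and 1.54 CPM in bulk. The list of 15 genes of the epiblast after implantation did not follow Pou3f1. Only 4 of them had enough UMIs, of which Dnmt3a was lower and none was higher, with a median log2 ratio of 0.51 in bulk and -0.67 in SCRB-seq. Dnmt3a was not lower in both assays relative to Gapdh. Tead2 was higher in both with every cell given equal weight, with cells thinned to 2000 UMIs and without wells above 20000 UMIs. The sum over all 15 was 232 CPM at 36 h and 226 CPM at 48 h in bulk, and 697 and 547 CPM in SCRB-seq, and thinned cells held a mean of 1.22, 1.29, 1.03 and 0.885 UMIs of the list at 24 h, 36 h, 48 h and 60 h.

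**Figure D2:**
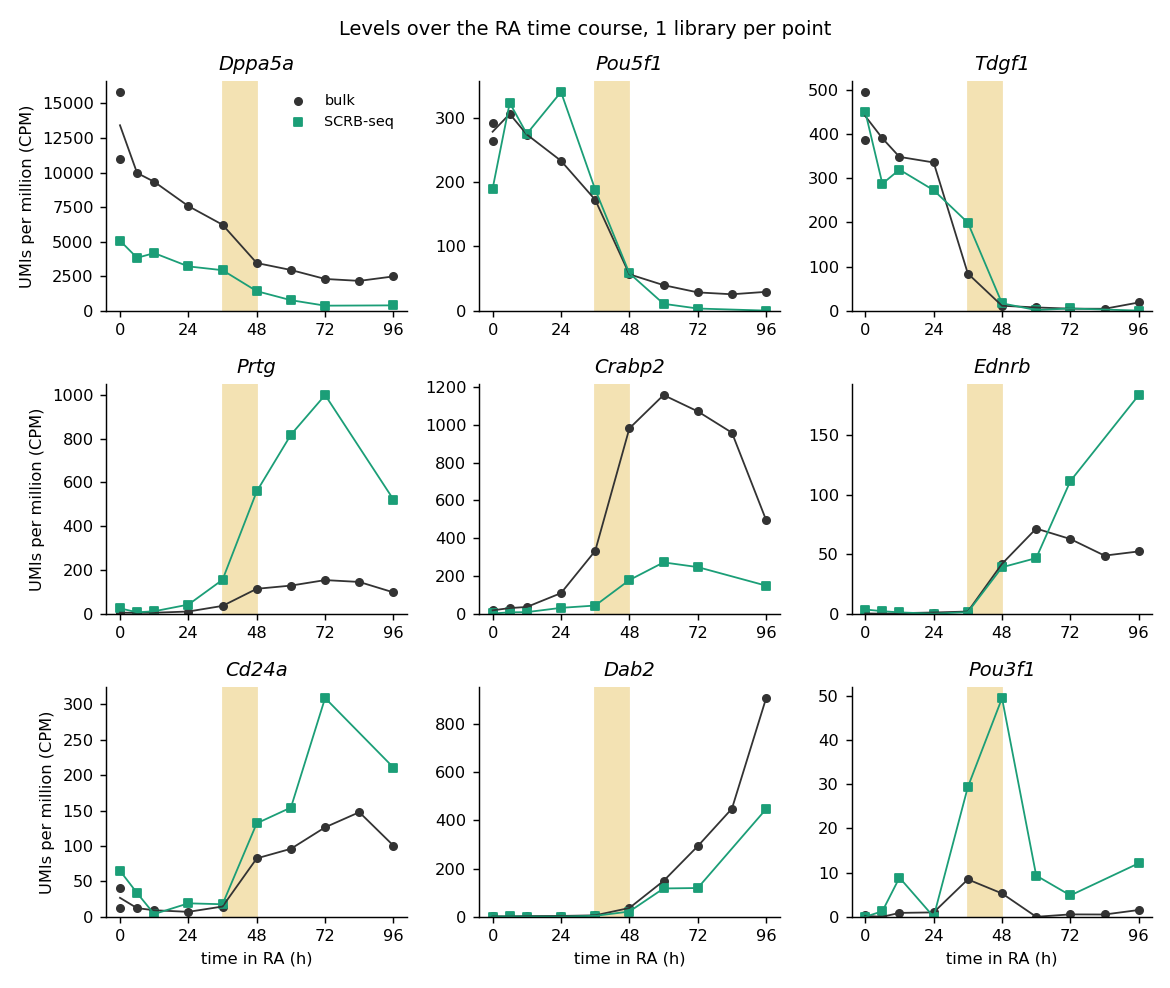
CPM of 9 genes (1 panel each, linear y axes of their own) against hours in RA in bulk (black circles) and SCRB-seq (green squares), 1 library per point and 2 at 0 h in bulk, with the interval from 36 h to 48 h shaded. Pou5f1 and Tdgf1 are lower at 48 h than at 36 h, Prtg, Crabp2, Ednrb and Cd24a are higher, Dab2 is still low at 48 h (36.6 CPM in bulk) compared with 96 h (908 CPM), and Pou3f1 has its highest values at 36 h or 48 h.

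Genes of the pluripotent state were among the largest losses. Of 12 genes fixed as core pluripotency genes, all 12 had enough UMIs, 5 were lower in both assays (Pou5f1, Utf1, L1td1, Dppa2 and Tdgf1) and none was higher, with a median log2 ratio of -0.40 in bulk and -0.81 in SCRB-seq. Over all compared genes, the share lower in both assays was 2.6%. Of 23 naive genes, 9 had enough UMIs and 6 were lower (Zfp42, Klf2, Dppa5a, Tet2, Fbxo15 and Morc1), with medians of -0.63 and -0.97. For Klf2 and Tet2 the interval of the ratio included 1 in at least 1 assay. Relative to Gapdh, Tet2, Fbxo15 and Dppa2 were no longer past the fold in both assays, Zfp281 was lower, and Sall4, Sox2 and Tcf3 of the core list were higher. The remaining 14 naive genes, among them Esrrb, Klf4 and Tfcp2l1, had too few UMIs in at least 1 assay.

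Tdgf1, which encodes the Nodal co-receptor Cripto, had the steepest loss of these lists. It was counted 139 times at 36 h and 27 times at 48 h in bulk, and 462 and 25 times in SCRB-seq, so that it was 7.66-fold and 12.1-fold lower. Pou5f1, which encodes the factor Oct4, was counted 285 and 139 times in bulk and 436 and 88 times in SCRB-seq, 3.05-fold and 3.24-fold lower. Utf1, a chromatin factor of undifferentiated cells, was counted 108 and 47 times in bulk and 187 and 21 times in SCRB-seq, 3.42-fold and 5.83-fold lower. L1td1, an RNA-binding protein of mESCs, was 2.62-fold and 3.14-fold lower. Zfp42, also known as Rex1, had smaller losses, 1.55-fold and 2.51-fold, with 180 and 117 CPM in bulk and 159 and 63.4 CPM in SCRB-seq.

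Not every pluripotency gene met the rule for lower genes. Nanog, counted 605 and 692 times in bulk and 1831 and 1075 times in SCRB-seq, had ratios of 0.769 (0.688 to 0.859) and 0.897 (0.831 to 0.968), both short of the fold. Sox2, which neural progenitors also use, had ratios of 1.85 in bulk and 1.25 in SCRB-seq. Fgf4, the FGF ligand of mESCs, was under the minimum in bulk with 4 and 2 UMIs, and went from 54 UMIs to 0 in SCRB-seq.

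By the rule of the largest smaller ratio, the 12 lower genes named were Nupr1, Tdgf1, Cd37, Utf1, Chchd10, Pou5f1, Ooep, Aurkc, Aqp3, Mylpf, Epha2 and Morc1. Nupr1, a small stress-induced chromatin protein, went from 164 to 31 UMIs in bulk and from 45 to 2 in SCRB-seq, 7.87-fold and 14.7-fold lower, the latter on 2 molecules. Cd37, a tetraspanin, was 4.98-fold and 4.04-fold lower. Chchd10, a mitochondrial protein, was 3.33-fold and 3.78-fold lower, and Mylpf, a myosin light chain, 2.88-fold and 3.51-fold. Aurkc, a kinase of the Aurora family, and Ooep, a protein of the oocyte cortex, were 3.00-fold and 3.04-fold lower in bulk and 2.73-fold and 3.61-fold lower in SCRB-seq. Aqp3, a water and glycerol channel, was 2.91-fold and 4.78-fold lower, and Epha2, an ephrin receptor, 2.88-fold and 5.06-fold. Morc1, a repressor of transposons in the germ line, was 2.81-fold and 3.16-fold lower.

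Most measured genes of neural ectoderm were higher at 48 h. Of 22 neuroectoderm genes, 16 had enough UMIs. Of these 13 were higher in both assays and none was lower, with a median log2 ratio of 1.67 in bulk and 1.51 in SCRB-seq. Over all compared genes, the share higher in both assays was 8.59%. The 13 were Prtg, Mdk, Fabp5, Cd24a, Pax6, Sox11, Meis1, Sox1, Crabp1, Sox4, Cdh2, Ncam1 and Ccnd2; some of the list are genes that the study picked as markers in these very cells, so that their direction is no independent evidence. Vim, Hoxb2 and Tubb3 were the 3 that did not meet the rule, and Vim had ratios of 1.39 in bulk and 0.713 in SCRB-seq. With TMM factors 12 of the 16 were higher, Pax6 being lost, and without wells above 20000 UMIs 12 of 15, with Crabp1 under the minimum.

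Cd24a, the surface protein by which the study sorted cells, was counted 24 and 203 times in bulk and 41 and 200 times in SCRB-seq, 5.68-fold (3.71 to 9.08) and 7.45-fold (5.30 to 10.7) higher. Ccnd2, which encodes cyclin D2, was counted 6 and 72 times in bulk and 4 and 58 times in SCRB-seq. The gain of Ccnd2 was 8.06-fold (3.53 to 22.7) and 22.2-fold (8.20 to 84.0). It had not been steady before, since in bulk it was at 12.2, 16.3, 8.97 and 3.63 CPM at 6 h, 12 h, 24 h and 36 h. Neural factors were low but higher at 48 h: Sox1 went from 18 to 55 UMIs in bulk and from 47 to 142 in SCRB-seq, Sox11 from 8 to 46 and from 98 to 126, and Pax6 from 13 to 87 and from 37 to 39. The SCRB-seq ratio of Pax6, 1.61 (1.00 to 2.60), was close to the threshold. Among adhesion molecules, N-cadherin (Cdh2) was 3.73-fold (1.82 to 8.63) and 6.83-fold (3.86 to 12.9) higher, and Ncam1 5.46-fold and 3.10-fold.

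By the smaller of its 2 ratios, the gene with the largest gain was Ednrb, the endothelin receptor B, known from neural crest and radial glia. Only 3 molecules were counted at 36 h in bulk against 103 at 48 h, and 3 against 59 in SCRB-seq, a gain of 23.1-fold (7.68 to 114) and 30.1-fold (9.79 to 150). It lies at chr14:103814615-103844508. Gfra3, a co-receptor for the ligand artemin, was counted 2 and 70 times in bulk and 8 and 59 times in SCRB-seq, 23.5-fold and 11.3-fold higher. Both were at most at 0.996 CPM in bulk up to 24 h, and Ednrb at 3.52 and Gfra3 at 4.93 CPM in SCRB-seq.

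The other 10 genes named by the same rule were Ccnd2, Wls, Plat, Fzd3, Gprc5c, Sh3bgrl, Cd24a, Dab2, Krt18 and Igf2. Wls, which carries Wnt proteins to the cell surface, went from 10 to 135 UMIs in bulk and from 22 to 104 in SCRB-seq, 9.07-fold and 7.22-fold higher. Fzd3, a Wnt receptor of the Frizzled family, was 11.9-fold (3.85 to 59.4) and 6.62-fold (3.93 to 11.7) higher. Sfrp1, a secreted Frizzled-related protein, and Id2, an inhibitor of bHLH factors, were the 2 higher genes among 5 measured Nodal, BMP and Wnt genes, at 5.15-fold and 5.63-fold for Sfrp1 and 4.00-fold and 3.26-fold for Id2. Igf2, the imprinted growth factor, was 12.2-fold and 5.26-fold higher, and Plat, tissue plasminogen activator, 7.02-fold and 14.5-fold. Gprc5c, an RA-inducible receptor of class C, was 5.87-fold and 7.46-fold higher, and Sh3bgrl 5.81-fold and 7.13-fold.

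Of 16 genes of the RA response, 13 had enough UMIs and 6 were higher in both assays: Rarb, Stra6, Crabp2, Dhrs3, Tshz1 and Zfp703. None was lower, and the medians were 0.88 in bulk and 1.24 in SCRB-seq. Among all compared genes, 8.59% were higher in both assays. Crabp2, which carries RA to its nuclear receptor, was counted 550 and 2416 times in bulk and 100 and 270 times in SCRB-seq, 2.95-fold (2.69 to 3.24) and 4.13-fold (3.27 to 5.24) higher. Stra6, the membrane receptor for retinol-binding protein, was 1.93-fold and 3.22-fold higher, and Dhrs3, which reduces retinaldehyde to retinol, 2.01-fold and 2.37-fold. The receptor gene Rarb was counted 15 and 41 times in bulk and 27 and 56 times in SCRB-seq, 1.84-fold (0.995 to 3.57) and 3.17-fold (1.97 to 5.22) higher. Cyp26a1, the enzyme that breaks down RA, had 106 and 141 UMIs in bulk, a ratio of 0.894 (0.690 to 1.16), and 87 and 107 UMIs in SCRB-seq, a ratio of 1.88 (1.40 to 2.52). Rarg was under the minimum in bulk, with 20 and 9 UMIs, and had 267 and 48 UMIs in SCRB-seq.

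The promoters of Rarb, Cyp26a1 and Zfp42 are shown as examples that hold the sequence motifs searched here. The first motif was a direct repeat of 2 half-sites, each GGTCA or GTTCA, with 6 bases between (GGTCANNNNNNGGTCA, GGTCANNNNNNGTTCA, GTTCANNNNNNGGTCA or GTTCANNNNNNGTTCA). It is one form of the repeats that retinoic acid receptors bind. Where half-sites are written with 6 bases, the last of the bases between belongs to the following half-site. Repeats with other spacings were not searched. The second motif was the octamer ATGCAAAT, to which Pou5f1 and other POU factors bind. Both strands of a window from 250 bases before to 50 bases after each start site were searched, and the motifs do not overlap. Sequences are from RefSeq, build GRCm38.p6, 5′ to 3′ on the strand of the gene, with the match in capitals. Rarb is at chr14:16575427-16575726 on the minus strand, with the match starting 52 bases before the start site; Cyp26a1 is at chr19:37697558-37697857 on the plus strand, with the match on the other strand, its first printed base 32 bases before the start; Zfp42 is at chr8:43306960-43307259 on the minus strand, with the octamer on the other strand, 186 bases before the start.
Rarb: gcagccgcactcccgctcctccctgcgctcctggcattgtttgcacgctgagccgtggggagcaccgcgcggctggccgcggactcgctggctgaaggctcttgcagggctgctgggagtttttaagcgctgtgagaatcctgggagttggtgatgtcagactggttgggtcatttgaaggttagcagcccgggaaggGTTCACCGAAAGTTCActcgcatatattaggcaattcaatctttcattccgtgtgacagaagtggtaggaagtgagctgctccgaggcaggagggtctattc
Cyp26a1: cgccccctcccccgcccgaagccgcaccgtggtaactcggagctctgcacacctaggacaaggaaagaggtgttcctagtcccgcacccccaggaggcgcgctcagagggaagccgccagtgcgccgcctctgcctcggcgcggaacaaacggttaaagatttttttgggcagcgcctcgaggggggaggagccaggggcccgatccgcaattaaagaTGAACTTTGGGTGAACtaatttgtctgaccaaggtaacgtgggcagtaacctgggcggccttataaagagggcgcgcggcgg
Zfp42: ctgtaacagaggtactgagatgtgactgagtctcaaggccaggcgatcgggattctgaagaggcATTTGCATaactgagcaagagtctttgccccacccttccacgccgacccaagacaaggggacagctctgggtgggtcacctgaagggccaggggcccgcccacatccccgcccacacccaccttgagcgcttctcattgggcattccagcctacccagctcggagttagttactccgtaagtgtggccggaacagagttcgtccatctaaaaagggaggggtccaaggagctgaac

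Few windows held either motif. The direct repeat was in 81 of all 32851 windows (0.247%), in 10 of 4381 compared genes with a window (0.228%), in 1 of 374 higher genes and in 0 of 108 lower genes. The octamer was in 1.74% of all windows, in 60 compared genes (1.37%), in 6 of the 374 and in 2 of the 108. Of the 16 RA response genes 11 had a window, and Rarb and Cyp26a1 were the 2 with the repeat, while Aldh1a2, which encodes an enzyme of RA synthesis, held the octamer. Of pluripotency genes with a window, the octamer was in 1 of 14 naive genes (Zfp42) and in 0 of 9 core genes, and the repeat in none. Of 79 named genes, 53 had a window. A match is a description of the letters and not a binding site, and the absence of one says only that these letters are not in this window.

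Hox genes did not move together. Of 16 listed, 7 had enough UMIs and Hoxb5 alone was higher in both assays, at 1.93-fold and 1.70-fold (not without wells above 20000 UMIs), with a median log2 ratio over the 7 of -0.13 in bulk and 1.01 in SCRB-seq. The share of all compared genes higher in both assays was 8.59%. Hoxb1 had 0.759 in bulk and 2.24 in SCRB-seq. Hoxb2 was counted 1052 and 1433 times in bulk, a ratio of 0.915, and 165 and 183 times in SCRB-seq, a ratio of 1.69.

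Laminin, collagen IV and keratin genes of the XEN list were among those higher at 48 h. Of 22 listed genes, 10 had enough UMIs and 7 were higher in both assays: Col4a1, Col4a2, Lama1, Lamb1, Dab2, Krt8 and Krt18. The other 3 were the basement membrane genes Lamc1 (1.49-fold and 1.37-fold) and Sparc (1.47-fold and 2.15-fold) and the endocytic receptor Lrp2, and Nid1 was under the minimum. The study picked out Sparc, Col4a1, Lama1 and Dab2 as XEN markers in these very cells, so their direction is no independent evidence. The medians of the 10 were 1.62 in bulk and 1.31 in SCRB-seq, and 8.59% of all compared genes were higher in both assays. Lamb1, a laminin chain, was counted 37 and 211 times in bulk and 80 and 149 times in SCRB-seq, 3.83-fold (2.69 to 5.59) and 2.85-fold (2.15 to 3.78) higher. Dab2, an endocytic adaptor of endoderm, was counted 10 and 90 times in bulk and 9 and 33 times in SCRB-seq, 6.05-fold (3.14 to 13) and 5.60-fold (2.62 to 13.3) higher. The keratin Krt18 was counted 9 and 73 times in bulk and 11 and 81 times in SCRB-seq, 5.45-fold and 11.3-fold higher, and its partner Krt8 was 4.26-fold and 7.56-fold higher. Lama1 met the rule at its edge, with 65 and 64 UMIs in SCRB-seq and a ratio of 1.5 (1.05 to 2.16). With TMM factors 5 of the 10 were higher, Lama1 and Col4a1 being lost. Without wells above 20000 UMIs it was 5 of 9, Dab2 and Lama1 being lost. For Col4a1 the interval of the ratio included 1 in at least 1 assay.

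The factors that define endoderm had few UMIs, and no direction over both assays is given for them. Gata6 had 7 and 30 UMIs in bulk and 101 and 61 in SCRB-seq. Sox17 had 5 and 25 in bulk and 22 and 8 in SCRB-seq, and Gata4 0 and 17 in bulk and 3 and 0 in SCRB-seq. Pdgfra, the receptor by which XEN-like cells were sorted, had 1 and 20 in bulk and 20 and 17 in SCRB-seq. All 4 were under the minimum in at least 1 assay. Bulk ratios were 2.88 (1.24 to 7.77) for Gata6, 3.36 (1.26 to 11.2) for Sox17 and 13.4 (2.15 to 557) for Pdgfra, on 1 UMI at 36 h. In SCRB-seq they were 0.923 (0.660 to 1.28), 0.556 (0.214 to 1.3) and 1.30 (0.639 to 2.61), and these 3 intervals include 1.

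Markers of other cell types were at low levels. The summed level of 8 mesoderm genes was 6.66 and 8.13 CPM in bulk and 12.5 and 7.26 CPM in SCRB-seq, with 3 of the 8 at 0 in all 4 samples. The sum of 7 fibroblast genes was 10.9 and 17.9 CPM in bulk and 7.78 and 28.4 CPM in SCRB-seq, and that of 7 trophoblast genes 4.24 and 20.7 CPM in bulk and 11.2 and 17.8 CPM in SCRB-seq, each higher at 48 h. None of these genes had enough UMIs in both assays, and their part in the other results was not tested. The 2-cell-like list had 4 genes with enough UMIs, of which Zscan4f, one of several near-identical copies whose reads may be split, was higher at 2.90-fold and 1.52-fold. It lost this call with TMM factors, DESeq2 size factors and 5 other settings.

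No cell cycle gene listed passed the fold in both assays with the library total. None of 16 S phase and none of 16 G2 and M phase genes was past the fold in both assays, against the 11.2% of all compared genes. Mki67, a proliferation marker of the latter list (2.39-fold and 1.43-fold), passed relative to Gapdh, with every cell given equal weight and without wells above 20000 UMIs. Of 14 measured genes of glycolysis, Slc2a1, the glucose transporter Glut1, was higher (364 to 1281 UMIs in bulk, 1257 to 2175 in SCRB-seq, 2.36-fold and 2.64-fold) and Hk2, a hexokinase, lower (1.90-fold and 1.51-fold), though not relative to Gapdh or with a well limit of 1000 or 3000 UMIs. The receptors Fgfr1 and Fgfr2 and the ERK inhibitor Spred1 were higher among 6 genes of FGF signalling and ERK feedback, Fgfr2 at 2.22-fold and 3.35-fold, and Fgfr1 lost the call with TMM and DESeq2 factors. In the DNA methylation list, 9 genes were measured: Dnmt3a and Tet2 were lower and Tet3 higher in both assays, the first pair not relative to Gapdh and Tet3 not without wells above 20000 UMIs, while Dnmt1 had ratios of 1.51 and 0.600. Of 79 ribosomal protein genes, Rpl10l and Rpl39l, copies known mainly from testis and early embryo, were lower and none was higher, a share near the 2.6% of all compared genes. All ribosomal protein genes together held 284898 and 264929 CPM in bulk and 132294 and 117089 CPM in SCRB-seq.

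Genes of adhesion and cytoskeleton included 6 higher genes among 12 measured: Cdh2, Krt8, Krt18, Tpm1, Itga3 and Zeb1. Tpm1, a tropomyosin, was 2.90-fold and 5.23-fold higher. The intervals of Itga3 in bulk (0.934 to 3.73) and of Zeb1 in both assays (0.804 to 3.49 and 0.964 to 3.59) included 1, and Zeb1 lost the call with TMM, DESeq2 and Gapdh scaling. Of the p53 and apoptosis list, Trp53inp1 was the single higher gene among 7, at 2.25-fold and 1.92-fold. Atf3, a stress-induced factor, was the single one among 3 stress genes, at 1.68-fold and 7.47-fold, but not with TMM or DESeq2 factors or without wells above 20000 UMIs. Its interval included 1 in at least 1 assay. Counts of these lists, and single genes of short lists, are to be read against the 8.59% of all compared genes that were higher.

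In single cells, shares were compared after each cell was thinned to 2000 UMIs, since the plates differ in depth. Dppa5a was found in 96.1% of the 330 cells at 36 h (exact binomial interval 93.4% to 97.9%) and in 83.9% of the 274 cells at 48 h (79% to 88.1%), and the median cell held 5 and 2 UMIs. Without thinning the shares were 99.1% and 93.1%. The mean count per cell went from 6.06 UMIs at 24 h to 5.32 at 36 h, 2.74 at 48 h and 1.53 at 60 h. Pou5f1 was found in 33% (28% to 38.4%) and 10.9% (7.51% to 15.3%) of cells, Tdgf1 in 25.8% (21.1% to 30.8%) and 2.19% (0.808% to 4.71%), and Utf1 in 14.2% and 3.28%.

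Prtg was found in 22.7% of thinned cells at 36 h (18.3% to 27.6%) and in 58% at 48 h (51.9% to 63.9%), against 4.71% at 24 h and 71.8% at 60 h. Without thinning it was 45.2% and 77.4%. At 48 h, Dppa5a was at a mean of 2.59 UMIs in the 159 cells with Prtg and 2.96 in the 115 without, and at 36 h 4.87 in 75 cells and 5.46 in 255. With and without Cd24a it was at 2.92 in 53 and 2.70 in 221 cells at 48 h, and at 6.22 in 9 and 5.30 in 321 cells at 36 h, so that the order was not the same for both genes. Cd24a was found in 2.73% (1.25% to 5.11%) and 19.3% (14.8% to 24.5%) of cells, and Krt18 in 0.909% and 9.12%. Ednrb was found in 0.303% and 5.11% (2.82% to 8.42%), and in 0 of 276 cells at 24 h, which allows a share of up to 1.09% of thinned cells with a UMI (3 counts) and does not limit the cells that express it. Pou3f1 was found in 4.55% (2.57% to 7.39%) and 5.84% (3.37% to 9.31%) of cells, against 0 of 276 cells at 24 h and 2.29% at 60 h. The median depth of the 24 h and 60 h plates was 3442 and 4298 UMIs, and the part of free RNA in any of these shares was not tested. The intervals cover counting error within 1 plate and do not compare the times.

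**Figure D3:**
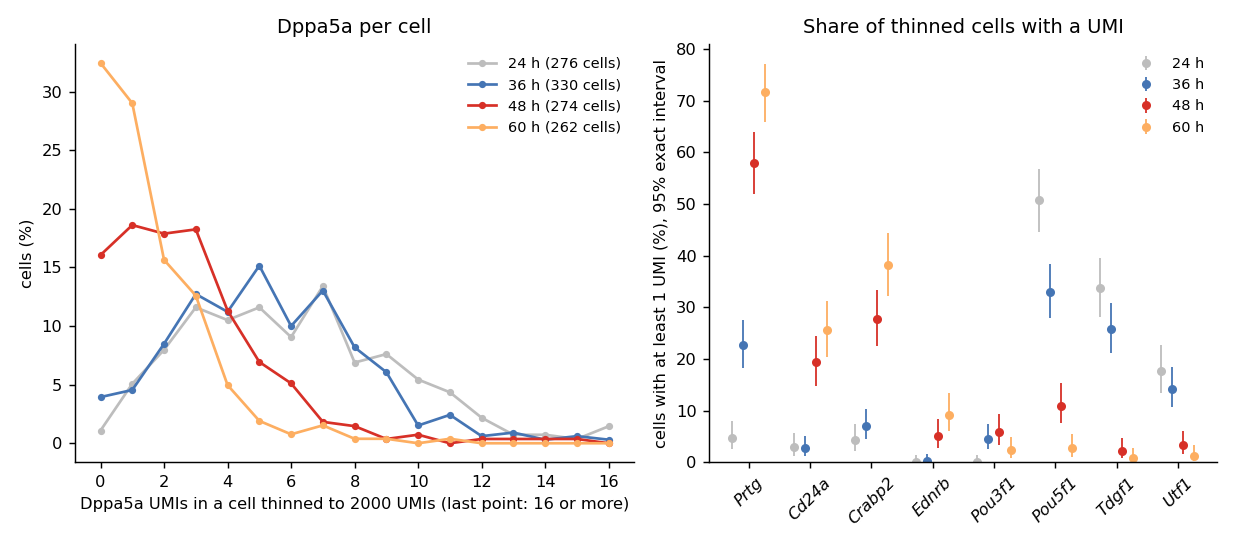
Left, the share of cells (%) by the number of Dppa5a UMIs after thinning each cell to 2000 UMIs, at 24 h, 36 h, 48 h and 60 h of RA. Right, the share of thinned cells (%) with at least 1 UMI of 8 genes with exact 95% intervals: Prtg is at 22.7% at 36 h and 58% at 48 h, and Pou5f1 at 33% and 10.9%.

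Summed over whole lists, each thinned cell held a mean of 8.72 UMIs of naive genes at 36 h and 5.14 at 48 h (SD 3.99 and 3.19 over cells), and 4.62 and 2.89 of core genes. The neuroectoderm list held a mean of 2.16 and 4.70 UMIs, with 3 or more UMIs in 38.8% and 75.9% of cells, and the RA list 1.88 and 3.76. The XEN list stood at 0.730 and 1.64 UMIs, with 3 or more in 5.45% and 19.3% of cells. The kept genes themselves, chosen on these cells, held a mean of 39.1 and 83.7 UMIs for the 496 higher and 42.5 and 22.4 for the 150 lower genes.

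The kept genes were then followed in libraries that had no part in choosing them. Over the other times of the course, the median level of the 496 higher genes lay between 11.5 and 13 CPM from 0 h to 24 h in bulk, beside 12.7 at 36 h and 29.7 at 48 h, and between 27.9 and 31.4 CPM from 60 h to 96 h. In SCRB-seq it was 32.8 CPM at 0 h and 24.3, 22.2 and 21.1 CPM at 6 h, 12 h and 24 h, then 20.7 and 48.9 CPM at 36 h and 48 h and 57.6, 66.6 and 66.7 CPM at 60 h, 72 h and 96 h. The median of the 150 lower genes lay between 47.4 and 53.3 CPM in bulk and between 56.8 and 68.2 CPM in SCRB-seq from 0 h to 12 h. In bulk it was 59.8, 43.3 and 20.1 CPM at 24 h, 36 h and 48 h, and between 17.4 and 19.5 CPM later. In SCRB-seq it was 73.6, 64.8 and 29.1 CPM, and 24.9, 25.8 and 21.2 CPM at 60 h, 72 h and 96 h. The levels at 48 h thus lay near those of the later times in bulk, and between 36 h and the later times in SCRB-seq.

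Levels of single genes did not all stay. Gprc5c was at 81.7 CPM at 48 h in bulk and at 27.6 CPM at 60 h, while in SCRB-seq it was at 80.6 and 94.6 CPM. Ccnd2 was at 29.3 CPM at 48 h and 169 CPM at 60 h in bulk, and at 38.3 and 201 CPM in SCRB-seq. Lamb1 in bulk was at 85.8, 136 and 1274 CPM at 48 h, 60 h and 96 h. Over the same times Gfra3 was at 28.5, 16.2 and 2.05 CPM in bulk and at 39, 20.5 and 0 CPM in SCRB-seq.

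At 48 h, cells without PDGFRA had been sorted into 4 quartiles of CD24, with 1 library each of 1063840 to 1583799 UMIs, so that again no test was run. Of 4595 compared genes with at least 40 UMIs over the lowest and highest quartile, 9.84% were at least 1.5-fold higher in the highest quartile and 9.36% at least 1.5-fold lower. Of the 496 genes higher at 48 h, 309 had enough UMIs, and 132 of them (42.7%) were higher and 16 (5.18%) lower in the highest quartile, with a median log2 ratio of 0.47 against 0.03 over all genes. Of the 150 lower genes 120 had enough UMIs, 59 of them (49.2%) were lower and 3 higher, with a median of -0.58. Levels were ordered upwards over the 4 quartiles for 27.8% of the 309 genes (9.23% of all) and downwards for 35% of the 120 (8.94% of all).

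Cd24a, by which the cells were sorted, is no finding here. Prtg was at 39.5, 83.5, 91.2 and 114 CPM from the lowest to the highest quartile, Crabp2 at 359, 506, 847 and 1089 CPM, and Ednrb at 2.68, 4.28, 10.3 and 22.7 CPM. Of the core pluripotency list 10 genes had enough UMIs, of which 5 were at least 1.5-fold lower and 3 at least 1.5-fold higher in the highest than in the lowest quartile, and of the naive list 8, all of them at least 1.5-fold lower. Tdgf1 was at 76.9, 58.6, 39.5 and 9.47 CPM, L1td1 at 203, 186, 147 and 24.0 CPM, and Pou5f1 at 109, 95.0, 74.3 and 41.7 CPM, from the lowest to the highest quartile. The 3 higher core genes were Lin28a (95.6 CPM in the lowest and 207 in the highest quartile), Sall4 (80.9 and 138 CPM) and Sox2 (18.7 and 28.4 CPM), the last with an interval of its ratio that included 1 (0.926 to 2.53). Dppa5a was at 5702, 5728, 5153 and 3717 CPM, 1.53-fold lower in the highest than in the lowest quartile. XEN-like cells were sorted by PDGFRA and these libraries are of cells without it, so levels of the XEN list here are limited by the sort. Of this list 6 genes had enough UMIs. Krt18 was at least 1.5-fold higher in the highest quartile (1.57-fold, 0.891 to 2.84), and Dab2 and Srgn at least 1.5-fold lower. Sparc (1.34-fold higher, 1.09 to 1.65), Lamb1 and Lamc1 were short of the fold. Lamb1 was at 32.8, 29.99, 41.4 and 35.4 CPM, and Dab2, at 25.4, 20.0, 11.3 and 14.5 CPM, was 1.75-fold lower in the highest quartile. The list of the epiblast after implantation was not counted over the quartiles. The study reports that markers of this epiblast increased with CD24 in these cells.

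**Figure D4:**
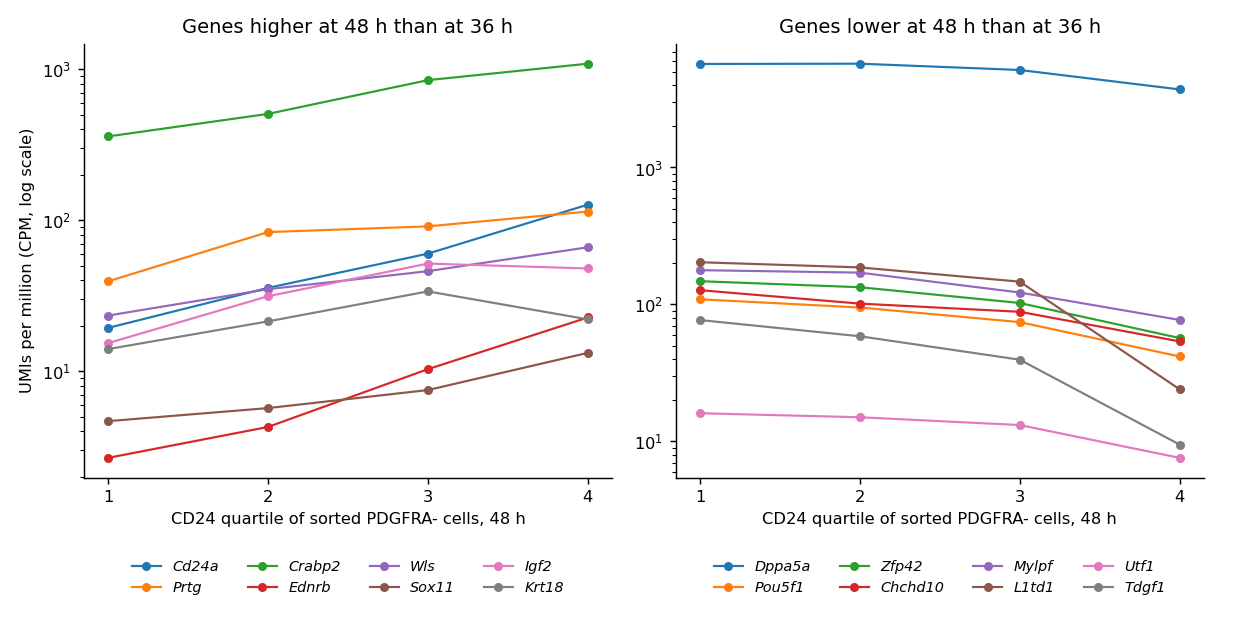
CPM (log scale) in the 4 CD24 quartiles of sorted PDGFRA- cells at 48 h, 1 library per point, for 8 genes higher (left) and 8 genes lower (right) at 48 h than at 36 h. Crabp2 goes from 359 to 1089 CPM and Ednrb from 2.68 to 22.7 CPM, while Tdgf1 goes from 76.9 to 9.47 CPM and L1td1 from 203 to 24.0 CPM; Krt18 and Igf2 have their highest level in the third quartile.

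A further assay covered a longer interval around this one. SMART-seq2 libraries of 89 cells at 24 h and 82 cells at 48 h were deposited as RPKM. Each cell was scaled to the median total, and the mean over cells plus 1 was compared, without a test, since cells of a time share 1 sample. Of 5728 compared genes, 9.71% were at least 1.5-fold higher and 9.57% lower at 48 h. Of the 496 higher genes 494 were listed, and 198 of them (40.1%) were higher and 7 lower. Of the 150 lower genes, 105 (70%) were lower and 2 higher. Prtg was at a mean of 38.9 RPKM at 24 h and 251 at 48 h, Ednrb at 0.615 and 21.4, Gfra3 at 3.10 and 92.2 and Igf2 at 0.451 and 29.4. Dppa5a was at 2272 and 818 RPKM, Tdgf1 at 387 and 20.3 and Pou5f1 at 201 and 36.0. Of the higher genes named here, 4 were at a lower mean at 48 h: Itga3 at 31.4 and 20.0 RPKM (1.54-fold lower), Zeb1 at 23.6 and 19.1, Gprc5c at 2027 and 1694 and Spred1 at 24.2 and 22.8. Reads per cell are not in the table used here, though the study set a minimum for them, so that no interval is given.

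Replicated libraries that bear on the kept genes were those of sorted cells at 96 h, with 2 of ectoderm-like and 2 of XEN-like cells. They were compared with edgeR's quasi-likelihood test, with 2 mESC libraries in the fit and Benjamini-Hochberg adjustment over 8946 genes, at an adjusted p of 0.05. The study calls them biological replicates, and the labels do not say whether both cell types of a replicate came from the same culture. Of all 8946 genes, 6.98% were higher in XEN-like and 5.81% higher in ectoderm-like cells. Among the 490 of the 496 higher genes in the fit, 44 (8.98%) were XEN-like genes by this test and 97 (19.8%) ectoderm-like genes, and 349 did not pass the test. Among 146 of the 150 lower genes, 18 (12.3%) were XEN-like genes and 5 (3.42%) ectoderm-like genes, and 123 did not pass. The genes compared at 36 h and 48 h had 6.57% and 5.02% of 5740 in the same order.

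The replicates of both cell types differed in XEN markers. In XEN-like cells, 3 of 21 XEN-list genes were higher in replicate 2 than in replicate 1. The ectoderm-like library of replicate 2 went the other way. Of 21 XEN-list genes in the fit, 20 were higher in it than in replicate 1, among them Pdgfra, a gene of the sort (3.33 and 36.8 CPM), Srgn (9.45 and 91.1 CPM) and Sparc (228 and 935 CPM). The summed level of the 21 was 614 and 2202 CPM in the ectoderm-like and 14035 and 8425 CPM in the XEN-like libraries, and that of 20 neuroectoderm genes was 4266 and 3783 against 830 and 597 CPM. Their part in the results at 96 h was not tested. Without this library, 443 of all genes were XEN-like and 226 ectoderm-like, against 624 and 520 with it, and the higher genes gave 42 and 67.

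The counts hung on the other libraries as well. In each fit that leaves out a library, its group holds 1 library, which is assumed to vary like those of the other groups. Without ectoderm-like replicate 1, the higher genes gave 15 calls towards XEN-like and 49 towards ectoderm-like cells, without XEN-like replicate 1 they gave 26 and 52, and without XEN-like replicate 2 they gave 29 and 58. The lower genes gave 8 and 1, in this order, without ectoderm-like replicate 1, 11 and 2 without ectoderm-like replicate 2, and 10 and 2 without XEN-like replicate 1.

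The study picked Prtg, Mdk, Fabp5 and Cd24a as ectoderm markers from single cells of this time course. Their direction between the sorted cells is thus no independent evidence, and the lists were chosen with earlier results of these data known. All 13 kept genes of the neuroectoderm list were higher in ectoderm-like cells at 96 h. Of these, 10 passed the test under all 11 alternatives, and Mdk, Meis1 and Ncam1 lost the call under 3 or 4 of them. Prtg was at 278 and 228 CPM in ectoderm-like and 38.6 and 29.2 CPM in XEN-like libraries, a log2 fold change (XEN-like minus ectoderm-like) of -2.79 ± 0.31 (SE, edgeR adjusted p = 0.00065, 0.00993 at most over the alternatives). Sox11 was at 64.5 and 69.8 against 3.05 and 1.82 CPM, -4.59 ± 0.54 (edgeR adjusted p = 0.00084). Cd24a was higher as well, but is a gene of the sort. For Cdh2 271 UMIs were counted in ectoderm-like and 3 in XEN-like libraries, a ratio of 82.7 (28 to 404), and for Pax6 117 and 0, at least 35.7-fold higher in ectoderm-like cells by a floor of 3 UMIs over the group.

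Of the 12 genes with the largest gains at 48 h, Gfra3 was not in the fit, 7 were higher in ectoderm-like cells at 96 h (Ednrb, Ccnd2, Wls, Fzd3, Gprc5c, Sh3bgrl and the sort gene Cd24a), 2 were higher in XEN-like cells (Dab2 and Plat) and 2 did not pass. Ednrb was at 127 and 116 CPM in ectoderm-like and at 1.02 and 0 CPM in XEN-like libraries, a ratio of summed UMIs of 187 (51.4 to 1548). Of the RA list, Crabp2 was at 1591 and 1112 against 16.3 and 19.1 CPM, a log2 fold change of -6.16 ± 0.34 (edgeR adjusted p = 7.2e-06). Ccnd2 (-2.91 ± 0.39), Wls (-2.56 ± 0.38), Fzd3 (-3.08 ± 0.51) and Sh3bgrl (-3.88 ± 0.61) were higher in ectoderm-like cells as well. Plat was at 47.2 and 47.8 CPM in ectoderm-like and 99.5 and 122 CPM in XEN-like libraries (1.33 ± 0.31, edgeR adjusted p = 0.015). Plat and Gprc5c lost the call under 3 and 5 of the alternatives. Igf2 and Krt18 did not pass the test, with adjusted p = 0.14 and 0.87 by edgeR. The RA list's Rarb, Stra6 and Dhrs3 did not pass either. Its Tshz1 (-4.17 ± 0.91, edgeR adjusted p = 0.012) and Zfp703 (-2.30 ± 0.61, edgeR adjusted p = 0.033) were higher in ectoderm-like cells. Tshz1 and Zfp703 lost the call under 2 and 4 of the alternatives.

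Of the 7 kept XEN genes, 6 were higher in XEN-like cells at 96 h, Krt18 being the other. Col4a1, Lama1 and Dab2 were picked by the study as XEN markers in the same way, so their direction at 96 h is no independent evidence either. Lama1, at 28.3 and 73 CPM in ectoderm-like and 1085 and 401 CPM in XEN-like libraries (3.93 ± 0.52, edgeR adjusted p = 0.0013), and Lamb1, at 56.1 and 161 against 1366 and 855 CPM (3.42 ± 0.45, edgeR adjusted p = 0.0011), passed under all alternatives. Col4a1, Col4a2, Dab2 and Krt8 lost the call under 1 to 3 of the 11, with adjusted p up to 0.167 for Col4a1 and 0.0902 for Dab2 by edgeR or DESeq2. Dab2 was at 30.6 and 242 CPM in ectoderm-like and 1263 and 950 CPM in XEN-like libraries, the higher ectoderm-like value being of replicate 2.

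Of the 11 naive and core pluripotency genes lower at 48 h, 6 were higher in XEN-like than in ectoderm-like cells at 96 h, Klf2 among them with the call lost under 3 alternatives, and Utf1, Dppa2, Tet2, Morc1 and Tdgf1 did not pass. Dppa5a was at 494 and 273 CPM in ectoderm-like and at 5947 and 4351 CPM in XEN-like cells, 3.85 ± 0.34 (edgeR adjusted p = 0.00024, 0.00178 at most over the alternatives). The level in XEN-like cells was thus above the 3446 CPM of the whole culture at 48 h. L1td1 (8.89 and 20.0 against 200 and 111 CPM), Fbxo15 (2.22 and 15.5 against 111 and 129 CPM), Zfp42 (20.6 and 13.6 against 82.8 and 46.5 CPM) and Pou5f1 (3.33 and 0.646 against 60.4 and 16.4 CPM) were also higher in XEN-like cells under all alternatives. Tdgf1 was at 1.82 to 5.56 CPM in all 4 libraries.

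**Figure D5:**
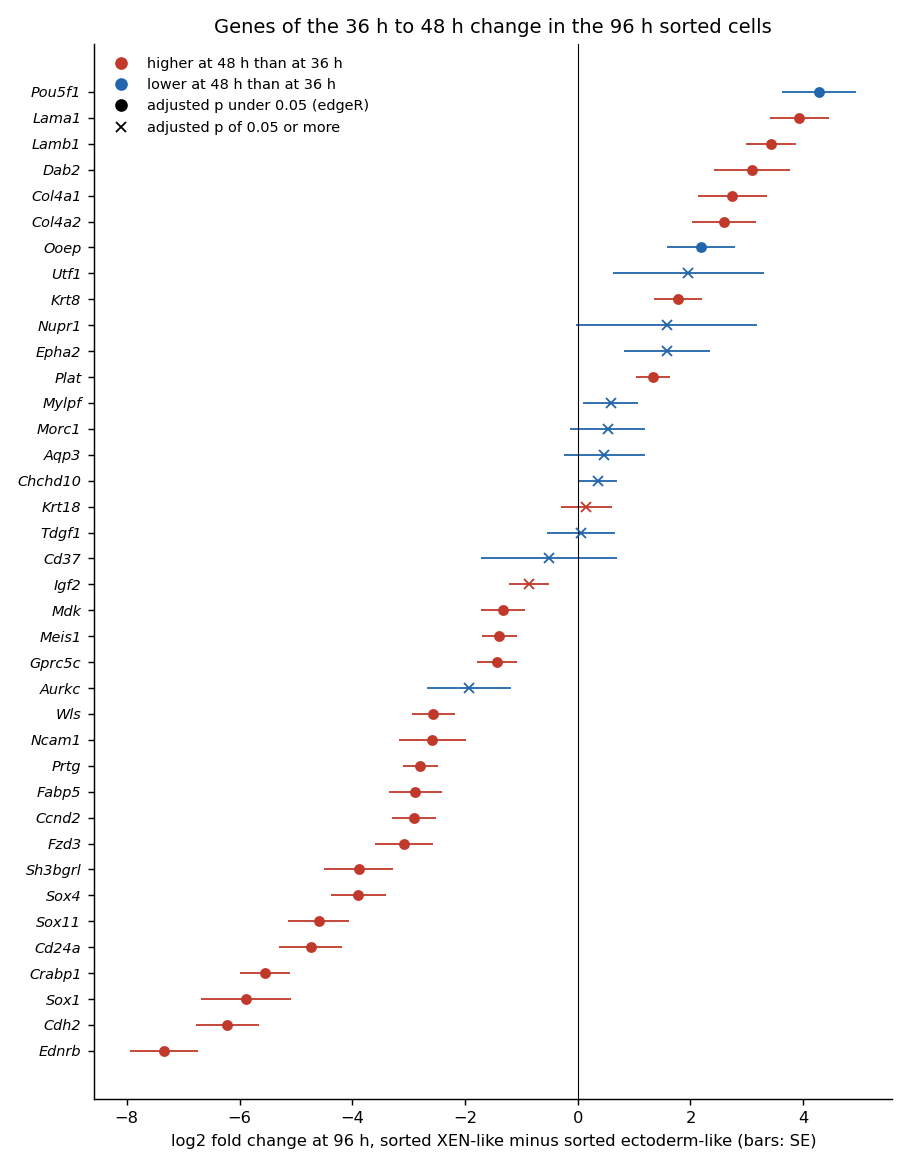
The log2 fold change at 96 h (sorted XEN-like minus sorted ectoderm-like, edgeR, bars are the SE, 2 libraries each) of kept genes with the largest ratios or of the neuroectoderm and XEN lists that had UMIs in the XEN-like libraries, coloured by whether they were higher (red) or lower (blue) at 48 h than at 36 h; crosses mark an adjusted p of 0.05 or more. Ednrb (-7.34) and the 12 neuroectoderm genes drawn lie on the left, Lama1 (3.93), Lamb1 (3.42) and, among the lower genes, Pou5f1 (4.28) on the right.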

How the data were processed

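Bulk RNA-seq and SCRB-seq were deposited as UMI counts per gene, which the authors obtained by aligning reads with BWA 0.7.4 to RefSeq mRNAs of mm10 and counting unique UMIs per gene and library or well. SMART-seq2 cells were deposited as RPKM, with TopHat and Cuffnorm named in the submitters' processing notes. Members and gene lists were chosen with earlier results of these data known.

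Rn45s, 2 repeated names and 23 names that matched no row of the other table were left out, which includes names that a spreadsheet had turned into dates. Wells above 2000 UMIs were summed for SCRB-seq. CPM used the library total, and 48 h was divided by 36 h. A gene was compared with at least 40 UMIs over both times in each assay and kept at 1.5-fold in the same direction in both. Exact conditional intervals (95%) were computed with scipy 1.17.1, pandas 2.3.3 and numpy 2.4.6 in Python 3.11.15, and plots with matplotlib 3.10.9. For single cells, UMIs were thinned at random to 2000 per cell, and doublets were not called. In SMART-seq2, 0.134% of values were text and read as 0, and cells of 12 h were not used.

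Sorted libraries of 96 h (1097123 to 1968983 UMIs) were compared with edgeR 4.0.16 in R 4.3.3 (quasi-likelihood test, TMM, filterByExpr, Benjamini-Hochberg), with DESeq2 1.42.0 as an alternative. The common biological coefficient of variation was 0.247. In a simulation of this comparison with 8667 genes, 7% of genes changed 2-fold and 65% of those changed 4-fold were recovered, with 4 false calls. The XEN and ectoderm cultures were not used. Bulk libraries held 1063840 to 2459534 UMIs, and intervals and floors cover counting error only.

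Genes were named by rule: Dppa5a, Prtg and Pou3f1; genes of the lists that were kept or needed to describe a list; the 12 genes in each direction with the largest smaller ratio of both assays; and the 5 genes with the largest smaller change in opposite directions. Alternatives were other scalings, UMI minimums, folds, well limits, weights of cells, tests and left-out libraries, and 1 alternative, leaving out wells above 20000 UMIs, was chosen after seeing the data.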

Additional observations from a re-analysis of the deposited data

Results flagged for a closer look

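Of the 105 genes past 1.5-fold in opposite directions, the 5 with the largest smaller change were higher at 48 h in bulk and lower in SCRB-seq. The ratio of 48 h over 36 h was 2.91 in bulk and 0.389 in SCRB-seq for Rnf130, an E3 ubiquitin ligase (12 and 52 UMIs against 51 and 13). It was 2.53 and 0.347 for Rnd3, a small GTPase (17 and 64 UMIs against 44 and 10). For Amer1, a regulator of Wnt signalling, it was 2.49 and 0.382. For Hsdl1 and Lyrm2 it was 3.26 and 0.41, and 2.19 and 0.255. With 1 library per time in each assay, the difference between the assays was not tested. At 96 h, Rnd3 was higher in sorted ectoderm-like cells, with a log2 fold change (XEN-like minus ectoderm-like) of -3.99 ± 0.50 (edgeR adjusted p = 0.0011, 0.012 at most over 11 alternatives). Hsdl1 was higher in XEN-like cells (1.39 ± 0.35, edgeR adjusted p = 0.0235, lost under 4 of the 11 with an adjusted p up to 0.214), and Rnf130, Amer1 and Lyrm2 did not pass.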

How the results depend on the processing

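Without replicates at 36 h and 48 h, the counts of kept genes rest on a ratio and a UMI minimum, and moved with both. The counts given are genes higher, lower and in opposite directions, in this order where 3 are given. They were 835, 234 and 258 with at least 20 UMIs, 186, 82 and 16 with at least 100 UMIs, 2346, 689 and 1512 with no minimum, 164, 32 and 16 at 2-fold, and 262, 92 and 40 with cells thinned to 2000 UMIs. Higher and lower genes numbered 328 and 257 with TMM factors and 319 and 277 with DESeq2 size factors, and 97 were lower relative to Gapdh. Without wells above 20000 UMIs they were 474 and 138, of which 427 and 126 were among the 496 and 150. Of the 496 and 150, 398 and 122 had ratios whose intervals excluded 1 in both assays.

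At 96 h, the 4 sorted libraries with the replicate number as a block gave 1328 XEN-like and 1288 ectoderm-like genes. Of the genes higher at 48 h it gave 93 and 175, and of the genes lower at 48 h 23 and 8. Same-numbered libraries deviated together with a correlation of 0.333, but with 2 pairs and no label for a shared origin they share only a number. DESeq2 called 243 genes higher in ectoderm-like cells, 2 of them lower at 48 h, and the fit with no filter called 831. Leaving out 1 library gave 146 to 744 XEN-like and 143 to 626 ectoderm-like genes. For genes higher at 48 h it gave 15 to 54 and 49 to 112, and for genes lower at 48 h 8 to 22 and 1 to 5. For named genes in this 96 h test, 55 calls were lost and 12 gained over the alternatives. Of all 1796 values of single genes, 75, all of them 48 h over 36 h ratios or shares of cells, moved beyond their error, and none reversed. The cause of these changes was not tested.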
